A study of Mus musculus with 14 samples.

Results

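The corticosteroid receptors Nr3c1 and Nr3c2 and 7 genes that act with them or respond to them were followed in ribosome-bound RNA of hippocampal parvalbumin (PV) interneurons after chronic social defeat stress (CSDS). The 9 genes, chosen by name, were Nr3c1, Nr3c2, Fkbp5, Fkbp4, Sgk1, Tsc22d3, Hsd11b1, Crhr1 and Zbtb16. All 9 were among the 39017 gene identifiers counted. The animals were male mice of C57BL/6 background, 8 to 12 weeks old when behavioral work began, from a cross of the Cre-dependent EGFP-L10a line with PV-Cre. They thus carried a GFP-tagged ribosomal protein in cells that express the PV gene, and all groups shared this genotype. Resilient and susceptible mice were attacked daily for 10 days by CD-1 aggressors and were separated by a social interaction ratio above or below 1, while non-defeated mice were not attacked. Translating ribosome affinity purification (TRAP) recovered RNA bound to tagged ribosomes in 4 non-defeated, 4 resilient and 3 susceptible libraries. A further 3 libraries held total hippocampal RNA of non-defeated mice before TRAP (input), so input libraries were available for non-defeated mice only. Each TRAP sample pooled the 2 hippocampi of 1 mouse.

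Glucocorticoids released during stress enter the brain and bind a pair of nuclear receptors. The mineralocorticoid receptor has the higher affinity and is largely occupied at rest, whereas the glucocorticoid receptor is filled during stress. Both wait in the cytoplasm in a complex of chaperones, move to the nucleus once they bind hormone, and raise or lower the transcription of target genes. The hippocampus is known for carrying both receptors in abundance and for its part in restraining the hormonal stress response.

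Reads counted on genes ranged from 64110214 to 80063224 per input library and from 72098582 to 94726962 per TRAP library. Values are CPM, counts scaled to library size after TMM normalization, and RPKM, which divides CPM by exon length, is used where genes are compared with each other. Libraries are named by the number in their sample title. All 8 PV interneuron markers were called higher in TRAP (adjusted p-value under 0.05), with a median log2 fold change of 2.77, and all 6 oligodendrocyte markers were lower, with a median of -2.66. Of 4 markers of other interneurons, Sst (log2 fold change 1.61, adjusted p = 0.000753) and Npy (2.79, adjusted p = 7.1e-06) were also higher in TRAP, and the other 2 were lower. Markers of other cells were still detected in TRAP RNA, and some were called higher than in input. Of 6 endothelial markers, Cldn5 (log2 fold change 1.23) and Ly6c1 (1.16) were higher and 0 were called lower. Of 4 mural markers, Acta2 (2.03) was higher and 1 was lower. Of 3 granule cell markers, Dsp (1.51) was higher and 2 were lower. Summed oligodendrocyte markers ranged from 507.6 to 1570 CPM in TRAP and from 2880 to 3247 CPM in input. The 5 thalamic markers summed to 127 CPM or more in input 14, non-defeated 9 and 11, resilient 7 and susceptible 10, and to between 24.8 and 80.5 CPM in the other 9 libraries. The 4 hemoglobin genes, markers of red blood cells, were all called higher in susceptible than in resilient mice, with a median log2 difference of 1.88. Values without the libraries high in thalamic markers are given where the call or direction of a described gene depended on them.

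Per exon length, the 3 highest of the 9 genes had separate levels in the 11 TRAP libraries, and the other 6 overlapped in part. Fkbp4, with a median of 106 RPKM (range 90.9 to 135), was the highest, followed by Tsc22d3 with 71.2 RPKM (62.5 to 80.8) and Sgk1 with 17.8 RPKM (13.4 to 20.4). The ranges of these 3 genes did not overlap with each other or with those below. Nr3c1 followed with 6.13 RPKM (4.16 to 8.24) and Nr3c2 with 5.86 RPKM (3.74 to 7.97), and the ranges of these receptors overlapped. Zbtb16, at 3.15 RPKM (2.35 to 4.47), overlapped with both receptors above it and with Fkbp5 below it, at 2.37 RPKM (1.80 to 3.50). Hsd11b1, at 1.10 RPKM (0.992 to 1.51), and Crhr1, at 0.996 RPKM (0.595 to 3.85), had the lowest medians and overlapped with each other. The range of Crhr1 also overlapped with those of Fkbp5, Zbtb16 and Nr3c2. The number of reads behind these levels was lowest for Crhr1, with 120 to 782 counts per library, and highest for Fkbp4, with 18226 to 31061.

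**Figure D1:**
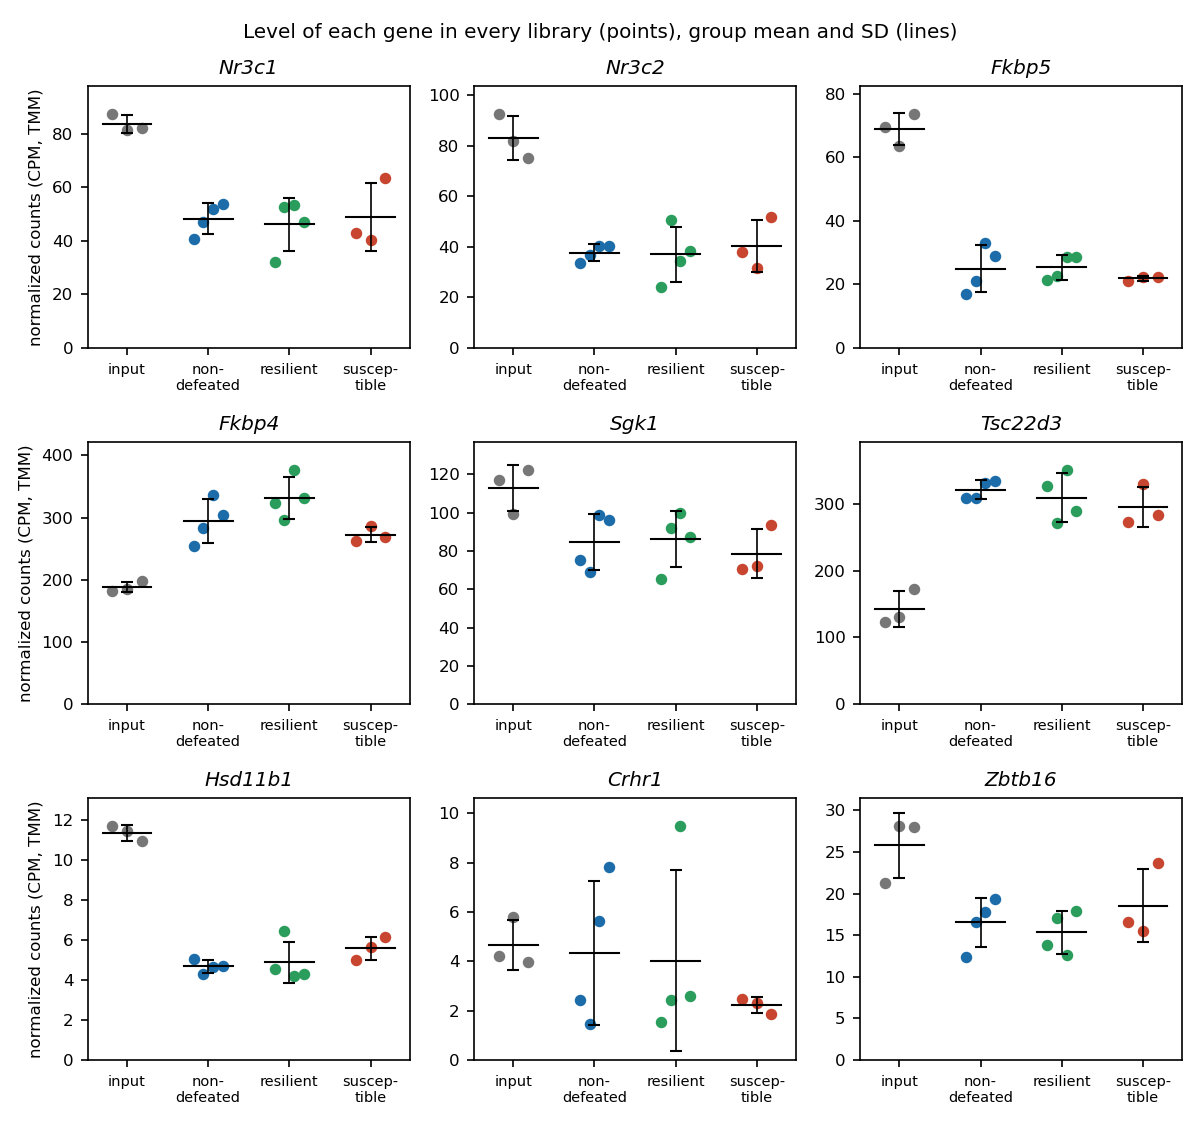
Normalized counts (CPM, vertical axis, from 0) of the 9 genes in each library, with 3 input, 4 non-defeated, 4 resilient and 3 susceptible libraries on the horizontal axis. Points are libraries, and black lines give the group mean and SD. The input points lie apart from the non-defeated points for each gene except Crhr1. The 3 TRAP groups overlap for each gene except Fkbp4, where the susceptible points, at most 287 CPM, lie below the resilient ones, at least 296 CPM. The share of all genes without overlap was not counted. Over all genes tested, 27.4% were called higher and 27.6% lower in TRAP than in input. In susceptible against resilient mice, 20.9% had an unadjusted p-value under 0.05 in edgeR's quasi-likelihood test.

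The comparison of TRAP with input RNA in non-defeated mice asks how RNA on the tagged ribosomes differs from that of the whole hippocampus. Of the 9 genes, 2 were higher in TRAP (Tsc22d3 and Fkbp4) and 6 were lower (Fkbp5, Hsd11b1, Nr3c2, Nr3c1, Zbtb16 and Sgk1) at an adjusted p-value under 0.05 in edgeR's quasi-likelihood test. Across all 21298 genes tested, 27.4% were called higher and 27.6% lower, so calls in this comparison were common. In bulk RNA of this kind, fewer cells of a type and less RNA per cell cannot be told apart. For the same reason a lower level in TRAP is a level relative to all RNA recovered. The exact 2-sided permutation test gave p = 0.0286, the smallest value that 4 against 3 libraries allow, for 7 of the 8 called genes, and p = 0.114 for Sgk1.

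Nr3c1 (ENSMUSG00000024431, mm10 chromosome 18, 39410545 to 39519421, minus strand), which encodes the glucocorticoid receptor, had 87.4, 81.4 and 82.0 CPM in input 12, 13 and 14. In non-defeated TRAP libraries 1, 6, 9 and 11 it had 40.5, 47.1, 52.1 and 53.7 CPM. The groups did not overlap, and the log2 fold change was -0.79 (SE 0.18, 95% interval -1.17 to -0.41, adjusted p = 0.00169). Nr3c2 (ENSMUSG00000031618, mm10 chromosome 8, 76899442 to 77245012, plus strand), which encodes the mineralocorticoid receptor, had 92.4, 81.6 and 75.1 CPM in input and 33.4, 36.8, 40.3 and 40.3 CPM in the same 4 TRAP libraries. Its groups did not overlap either, and its log2 fold change was -1.14 (SE 0.20, 95% interval -1.57 to -0.71, adjusted p = 0.00025). The exons of Nr3c2 overlap with those of the noncoding gene Gm10649 on the opposite strand, and the library kit does not record the strand, so reads in the shared part could come from either gene. Within a library, the ratio of Nr3c2 to Nr3c1 per exon length was 1.09 to 1.26 in input and 0.891 to 0.978 in non-defeated TRAP libraries. In resilient libraries the ratio was 0.766 to 1.15, which overlapped with input, and in susceptible libraries it was 0.934 to 1.05. Per exon length, the mineralocorticoid receptor gene was thus the higher of the pair in each of the 3 input libraries. It was the lower in each of the 4 non-defeated TRAP libraries, while the ratio lay on both sides of 1 in the other TRAP groups. The order in input depended on the division by length, as Nr3c2 was the lower in CPM in input 14 (75.1 against 82.0).

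The immunophilin genes Fkbp5 and Fkbp4 differed from input in opposite directions. Their products sit in the same place in the receptor complex: FKBP51, from Fkbp5, lowers the affinity of the receptor for hormone and is itself induced by glucocorticoids, while FKBP52, from Fkbp4, links the complex to transport toward the nucleus. Fkbp5 (ENSMUSG00000024222, mm10 chromosome 17, 28399094 to 28517527, minus strand) had 69.7, 63.7 and 73.6 CPM in input 12, 13 and 14. In non-defeated libraries 1, 6, 9 and 11 it had 17.0, 21.0, 33.2 and 28.9 CPM. Every TRAP value was below every input value, and the difference was the largest decrease of the 9 genes, 2.76-fold, with a log2 fold change of -1.47 (SE 0.18, 95% interval -1.86 to -1.07, adjusted p = 1.12e-05). Fkbp4 (ENSMUSG00000030357, mm10 chromosome 6, 128429735 to 128438677, minus strand) had 182, 185 and 198 CPM in input and 254, 283, 337 and 305 CPM in TRAP. Here every TRAP value was above every input value, with a log2 fold change of 0.65 (SE 0.10, 95% interval 0.43 to 0.86, adjusted p = 7.72e-05).

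Among the target genes, Tsc22d3 (ENSMUSG00000031431, mm10 chromosome X, 140539528 to 140600659, minus strand), which encodes the glucocorticoid-induced leucine zipper protein GILZ, was the most enriched of the set. It had 123, 131 and 173 CPM in input 12, 13 and 14, and 309, 309, 332 and 334 CPM in non-defeated 1, 6, 9 and 11. The groups were far apart, 2.26-fold by the fit, with a log2 fold change of 1.17 (SE 0.12, 95% interval 0.91 to 1.44, adjusted p = 2.03e-06). Sgk1 (ENSMUSG00000019970, mm10 chromosome 10, 21882184 to 21999903, plus strand), the serum- and glucocorticoid-regulated kinase, had 117, 99.6 and 122 CPM in input and 75.3, 69.0, 98.7 and 96.0 CPM in TRAP. The lowest input value was only just above the highest TRAP value. Its log2 fold change of -0.42 (SE 0.16, 95% interval -0.76 to -0.08, adjusted p = 0.0384) rested on single libraries, and the call was lost without non-defeated 1 (adjusted p = 0.092), non-defeated 6 (0.109), input 12 (0.101) or input 14 (0.129). Zbtb16 (ENSMUSG00000066687, mm10 chromosome 9, 48654297 to 48836222, minus strand), a transcription factor gene induced by glucocorticoids in many tissues, had 21.2, 28.1 and 28.0 CPM in input and 12.4, 16.6, 17.8 and 19.3 CPM in TRAP. Its groups did not overlap, and the log2 fold change was -0.64 (SE 0.18, 95% interval -1.03 to -0.25, adjusted p = 0.00887).

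Activated receptors bind glucocorticoid response elements, and the promoter windows of the members were searched for such letters to show what the sequence near each start holds. RefSeq windows of build GRCm38.p6, from 250 bases before to 50 after a start, were available for 7 of the 9 genes and 14 starts. The palindromic element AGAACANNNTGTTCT was present in 1 of them, a start of Sgk1, where it begins 189 bases before the start. It was present in 3 of all 32851 RefSeq windows (0.00913%). The shorter single-arm motif AGAACA, searched on both strands and contained in the full element, was in 4 of the 14 windows (3 of Sgk1 and 1 of Tsc22d3) and in 19.0% of all windows. Of 24 other glucocorticoid target genes, 22 had windows, none of whose 28 windows held the full element and 4 of which held the single arm. The Sgk1 window with the full element and the Tsc22d3 window with the single arm are shown 5′ to 3′ on the strand of the gene, the first at chr10:21993640-21993939 (plus strand) and the second at chrX:140600473-140600772 (minus strand), with the full element of Sgk1 and the single arm of Tsc22d3 in capitals. A further single arm near the 5′ end of the Sgk1 window is left in lower case. A match describes letters and not binding, which was not measured. A lack of a match covers only these exact letters in these windows, and other letters or more distant sequence were not searched.
Sgk1: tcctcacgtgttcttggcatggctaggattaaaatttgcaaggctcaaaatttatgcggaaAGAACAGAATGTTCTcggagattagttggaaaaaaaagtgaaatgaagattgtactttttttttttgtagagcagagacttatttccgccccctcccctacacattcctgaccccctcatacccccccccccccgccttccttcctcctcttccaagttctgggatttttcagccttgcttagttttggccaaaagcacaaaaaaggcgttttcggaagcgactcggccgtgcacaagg
Tsc22d3: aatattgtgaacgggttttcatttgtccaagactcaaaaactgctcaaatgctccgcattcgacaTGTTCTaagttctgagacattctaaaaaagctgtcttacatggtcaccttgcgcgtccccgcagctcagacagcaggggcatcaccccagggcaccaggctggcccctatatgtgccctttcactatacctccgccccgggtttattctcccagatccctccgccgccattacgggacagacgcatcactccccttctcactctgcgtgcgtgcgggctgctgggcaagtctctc

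Hsd11b1 and Crhr1 were the members with the fewest counts. Hsd11b1 (ENSMUSG00000016194, mm10 chromosome 1, 193221634 to 193264075, minus strand) encodes the type 1 11β-hydroxysteroid dehydrogenase, which regenerates active glucocorticoid inside cells. It had 11.7, 11.4 and 10.9 CPM in input 12, 13 and 14, and 5.06, 4.30, 4.63 and 4.69 CPM in non-defeated 1, 6, 9 and 11. Replicates lay close together and the groups did not overlap, with a log2 fold change of -1.28 (SE 0.15, 95% interval -1.60 to -0.96, adjusted p = 5.72e-06). Crhr1 (ENSMUSG00000018634, mm10 chromosome 11, 104132855 to 104175523, plus strand) encodes the main receptor of corticotropin-releasing hormone (CRH). It had 4.20, 5.80 and 3.97 CPM in input and 2.41, 1.46, 5.64 and 7.80 CPM in TRAP. Non-defeated 1 and 6 were below all input values, non-defeated 9 was within the input range and non-defeated 11 was above it. No difference was detected, with a log2 fold change of -0.11 (SE 0.58, 95% interval -1.34 to 1.13, adjusted p = 0.886).

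**Figure D2:**
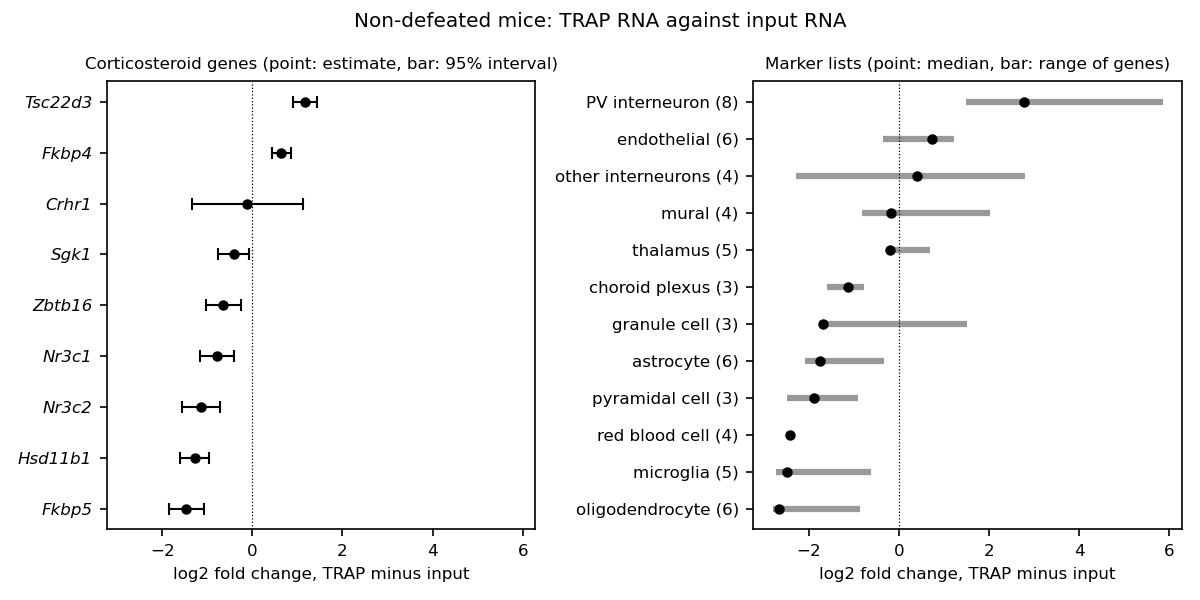
Log2 fold change of TRAP minus input in non-defeated mice (horizontal axes) for the 9 genes (left, point for the estimate and bar for the 95% interval) and for 12 marker lists (right, point for the median and bar from the lowest to the highest gene, number of genes in parentheses). Tsc22d3 (1.17) and Fkbp4 (0.65) lie to the right of 0, 6 genes lie to the left, and the interval of Crhr1 spans 0.

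The high Crhr1 values came from libraries that were also high in thalamic markers. Crhr1 was at 5.64, 7.80 and 9.48 CPM in non-defeated 9, non-defeated 11 and resilient 7, whose 5 thalamic markers summed to 326, 201 and 619 CPM. In the 7 TRAP libraries under 100 CPM of thalamic markers, Crhr1 was between 1.46 and 2.61 CPM. Susceptible 10, with 127 CPM of thalamic markers, had 1.85 CPM of Crhr1, and input 14, with 316 CPM, had 3.97 CPM. Cyp11a1, which encodes the enzyme that starts steroid synthesis, was highest in the same 3 TRAP libraries, at 2.83, 3.79 and 4.59 CPM, against 0.358 to 0.846 CPM in the other TRAP libraries. Without the 5 libraries over 100 CPM of thalamic markers, an alternative added after the data were seen that left 2 non-defeated and 2 input libraries, all 9 genes were called between TRAP and input, and the log2 fold change of Crhr1 was -1.36 (adjusted p = 0.00744). The other 8 kept their direction and call. The part of thalamic tissue in the Crhr1 values was not tested.

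**Figure D3:**
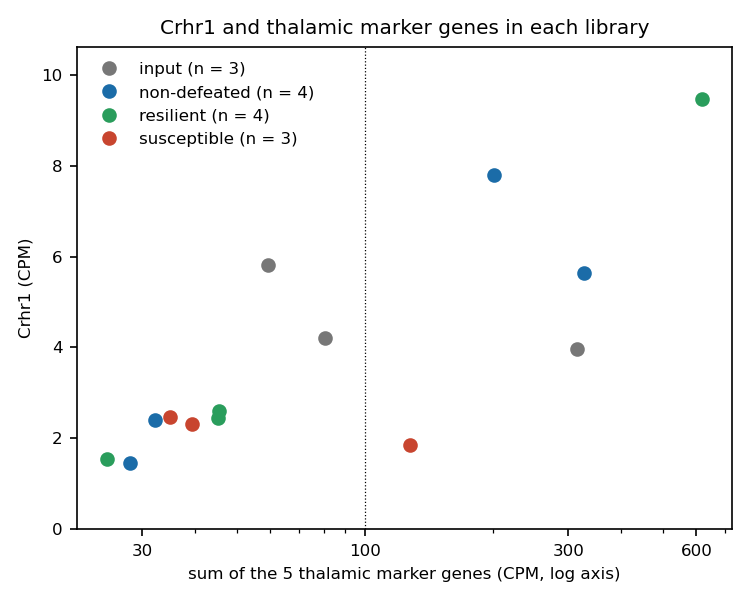
Crhr1 level (CPM, vertical axis) against the summed level of 5 thalamic marker genes (CPM, logarithmic horizontal axis) in each of the 14 libraries, colored by group. The dotted line marks 100 CPM. The 3 TRAP libraries above 5 CPM of Crhr1 lie to its right, and the 7 TRAP libraries to its left lie at or below 2.61 CPM.

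Genes that work around the receptors were grouped into 7 lists of 81 genes, 75 of which had enough counts to be tested. In TRAP against input, 19 were higher and 28 lower, which is 25.3% and 37.3% of those tested beside 27.4% and 27.6% over all genes. The receptor chaperone complex stood on the side of Fkbp4, with 10 of 13 genes higher (76.9%), none lower and a median log2 fold change of 0.39, beside -0.04 over all genes tested. Hsp90aa1, a heat shock protein of the 90 kDa class that holds the receptor ready for hormone, had 1796 ± 50.6 CPM (SD, n = 4) in TRAP and 667 ± 22.0 (SD, n = 3) in input (adjusted p = 3.31e-07). Bag1, a cochaperone that can release the receptor from its chaperone, had 385 ± 31.4 and 167 ± 7.86 CPM (adjusted p = 2.05e-07), and Ptges3, the p23 cochaperone, had 250 ± 5.76 and 155 ± 6.08 CPM (adjusted p = 2.49e-06). Of 12 receptor coregulators, 2 were higher (16.7%) and 3 lower (25%), with a median of -0.14, and both shares were below those over all genes. The higher ones, Arid1a and Smarca4, encode subunits of the BAF chromatin remodeling complex and had log2 fold changes of 0.83 (SE 0.17) and 0.60 (SE 0.13). The lower ones were Ncoa1 (-0.55, SE 0.12), a steroid receptor coactivator, Carm1 (-0.45, SE 0.08), an arginine methyltransferase, and Med1 (-0.25, SE 0.09), a Mediator subunit.

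Other glucocorticoid target genes were mostly on the lower side, with 3 of 24 higher (12.5%), 13 lower (54.2%) and a median log2 fold change of -0.52. Fam107a, a stress-responsive gene, was among the lower ones at 32.9 ± 2.40 CPM (SD, n = 4) in TRAP and 245 ± 4.59 (SD, n = 3) in input, a 7.45-fold difference (adjusted p = 6.8e-09). Cebpd, a transcription factor gene, fell by 1.85 on the log2 scale (SE 0.19, adjusted p = 2.1e-06) and Mertk, a receptor for the uptake of dying cells, fell by 2.24 (SE 0.34, adjusted p = 6.04e-05). The 3 higher genes were Arl4d (1.89, SE 0.15), a small GTPase gene, Dusp1 (1.59, SE 0.14), which encodes a phosphatase of MAP kinases, and Per1 (0.46, SE 0.14), a clock gene. Markers of glia and principal neurons were mostly lower too. Called lower were 5 of 6 astrocyte, 5 of 5 microglia, 3 of 3 pyramidal cell and 2 of 3 granule cell markers. The remaining granule cell marker, Dsp, was called higher (log2 fold change 1.51). The medians of these lists were -1.75, -2.47, -1.88 and -1.69 on the log2 scale. The part of RNA from such cells in these differences was not tested.

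The CRH and vasopressin list held the widest range. Crhbp, which encodes a secreted protein that binds and buffers CRH, had 277 ± 44.0 CPM (SD, n = 4) in TRAP and 16.4 ± 3.37 (SD, n = 3) in input, 16.8-fold higher (adjusted p = 5.86e-08). Markers of other interneurons, Sst and Npy, were higher in TRAP as well, as given above, and the part of such cells in the Crhbp level was not tested. Crh itself was low but higher in TRAP, at 2.14 ± 0.405 and 0.770 ± 0.0618 CPM (adjusted p = 0.00243). Crhr2, the second CRH receptor, had 0.473 ± 0.233 CPM in TRAP and 2.10 ± 1.25 in input (adjusted p = 0.00245). Avpr1b, a vasopressin receptor, had 0 counts in the 4 non-defeated TRAP libraries and 11 to 35 counts in input, at least 7.06-fold lower when 3 counts per library are taken as the limit that a count of 0 allows. Of 7 genes tested in this list, 2 were thus higher and 2 lower (28.6% each), close to the shares over all genes. In the SGK pathway, 2 of 8 genes were higher (25%) and 5 lower (62.5%). Foxo3, a transcription factor that the kinase inactivates, was higher (1.04, SE 0.13), as was the kinase gene Wnk1 (0.29, SE 0.10). The related kinases Sgk2 (-2.01, SE 0.40) and Sgk3 (-1.55, SE 0.27) and the ubiquitin ligase Nedd4l (-0.93, SE 0.24), a substrate of SGK1, were lower. Of the other steroid receptors, the progesterone receptor gene Pgr (-0.79, SE 0.15) and the estrogen receptor gene Esr1 (-1.57, SE 0.35) were lower, and Esr2 did not pass. Of 7 genes tested for corticosteroid synthesis, conversion and export, 0 were higher and 2 lower (28.6%), beside 27.4% and 27.6% over all genes. The share lower was thus close to that over all genes. Srd5a1, a steroid reductase, had 7.10 ± 0.295 CPM in TRAP and 15.5 ± 1.28 in input (adjusted p = 1.36e-06). Abcb1b, a drug and steroid exporter, also fell, by 1.45 on the log2 scale (SE 0.34, adjusted p = 0.0025). The other 5 did not pass. Hsd11b2, which inactivates glucocorticoid, reached at most 9 counts in any library and was not tested. Without the libraries high in thalamic markers, 43 of the 75 list genes were called, 16 higher and 27 lower. Of the list genes named here, Per1 (adjusted p = 0.0754), Med1 (0.14) and Wnk1 (0.12) then lost their calls, and none changed direction.

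**Figure D4:**
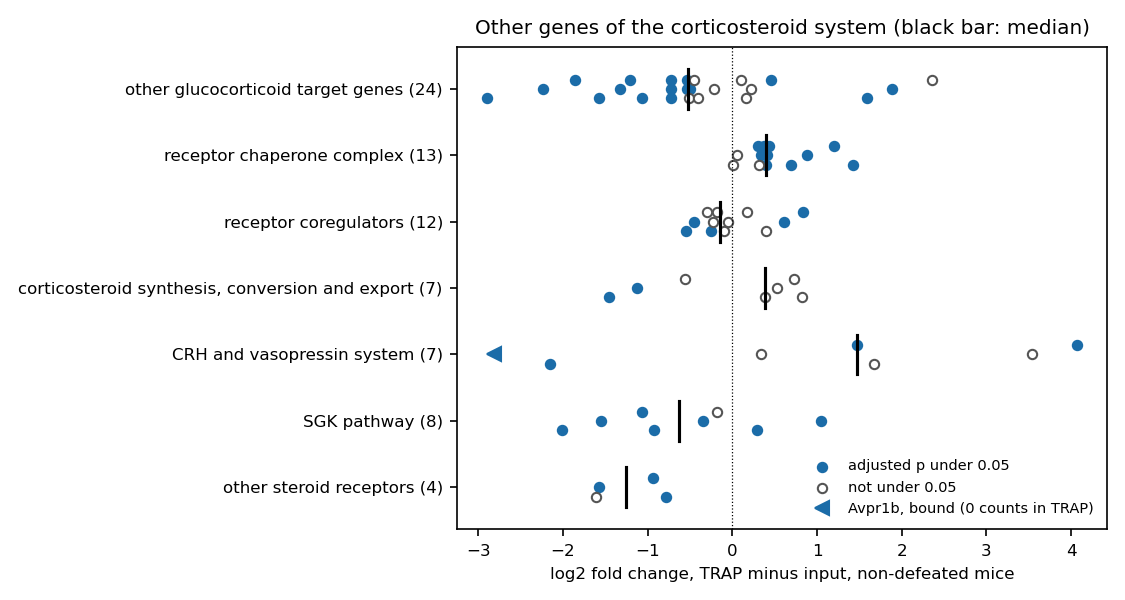
Log2 fold change of TRAP minus input in non-defeated mice (horizontal axis) for the 75 tested genes of 7 lists (vertical axis, number tested in parentheses). Filled points had an adjusted p-value under 0.05, black bars are list medians, and the triangle gives the bound for Avpr1b. All 10 filled points of the chaperone list lie to the right of 0.

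The comparisons among TRAP libraries ask whether defeat, or the response to it, went with a change in these genes in PV interneurons. None of the 9 genes was called in any of the 4 comparisons at an adjusted p-value under 0.05 in edgeR's quasi-likelihood test, and DESeq2 called none either. At an unadjusted p-value under 0.05, 1 gene passed in susceptible against resilient mice (Fkbp4) and 0 in the other 3 comparisons. Over all genes tested, an adjusted p-value under 0.05 was reached by 0% in resilient against non-defeated mice, 0.0376% in susceptible against non-defeated, 1.89% in susceptible against resilient and 0% in all defeated against non-defeated mice. The unadjusted shares were 4.38%, 13.3%, 20.9% and 4.88% in that order. The shared non-defeated libraries enter 3 of the comparisons, which are therefore not independent. Leaving out Crhr1, the 95% intervals of the other 8 genes lay between -0.61 and 0.67 on the log2 scale in all 4 comparisons. For Crhr1 the intervals reached from -2.24 to 1.04. In simulated libraries of this design, 47% of genes changed by a factor of 2 and 19% of genes changed by 1.5 were called between susceptible and resilient groups. The changed genes were drawn at random from all genes that passed the filter on low counts. These rates are therefore not rates for the 9 genes, whose counts and spread differ. Apart from the changed genes, simulated counts varied independently around the same mean in all libraries. The rates thus do not cover shifts shared by many genes of a library, such as those in thalamic markers.

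The receptors did not separate the groups. Nr3c1 had 32.0, 52.5, 53.5 and 46.9 CPM in resilient 3, 5, 7 and 8 and 42.8, 40.2 and 63.3 CPM in susceptible 2, 4 and 10. Non-defeated mice averaged 48.3 ± 5.92 CPM and resilient mice 46.2 ± 9.94 CPM (SD, n = 4 each), beside 48.8 ± 12.7 CPM for susceptible mice (SD, n = 3). Nr3c2 had 24.2, 50.7, 34.5 and 38.5 CPM in the same resilient libraries and 37.9, 31.7 and 51.6 CPM in the susceptible ones. Resilient 3 was the lowest and susceptible 10 the highest of all TRAP libraries for both receptors. The same libraries lay low and high in summed astrocyte markers, with 201 CPM in resilient 3 and 432 CPM in susceptible 10, against 214 to 350 CPM in the other TRAP libraries. Summed pyramidal cell markers were 434 and 875 CPM in these libraries, against 532 to 938 CPM in the others. Summed PV interneuron markers were 4504 CPM in resilient 3 and 3303 CPM in susceptible 10, against 3773 to 4579 CPM in the others. The part of such differences in cell markers in the receptor values was not tested. The log2 difference between susceptible and resilient mice was 0.08 (SE 0.18, 95% interval -0.30 to 0.46) for Nr3c1 and 0.13 (SE 0.20, 95% interval -0.31 to 0.56) for Nr3c2, with adjusted p-values of 0.844 and 0.768.

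Of the immunophilins, Fkbp5 was uniform in susceptible mice, at 21.0, 22.2 and 22.5 CPM in libraries 2, 4 and 10, and spread in the others, at 21.3, 22.8, 28.8 and 28.7 CPM in resilient 3, 5, 7 and 8. Non-defeated mice averaged 25.0 ± 7.33 CPM and resilient mice 25.4 ± 3.93 CPM (SD, n = 4 each), beside 21.9 ± 0.765 CPM for susceptible mice (SD, n = 3). The groups overlapped, and all defeated against non-defeated mice differed by a log2 value of -0.08 (SE 0.15, 95% interval -0.41 to 0.24, adjusted p = 0.999). Without the libraries high in thalamic markers, which left 2 non-defeated, 3 resilient and 2 susceptible libraries, this difference was 0.26. In resilient against non-defeated mice, Fkbp5 and Fkbp4 then had unadjusted p-values under 0.05 in edgeR's quasi-likelihood test, and neither was called. Of all genes, 2448 had such p-values in that fit, and their share of the genes tested in it was not counted. Fkbp4 had 323, 296, 377 and 332 CPM in resilient 3, 5, 7 and 8 and 262, 286 and 270 CPM in susceptible 2, 4 and 10. All 3 susceptible values were below all 4 resilient values, a log2 difference of -0.28 (SE 0.10, 95% interval -0.50 to -0.07, unadjusted p = 0.0121) that did not pass adjustment over all genes (adjusted p = 0.128). The exact permutation test gave p = 0.0571. The adjusted p-value stayed between 0.0981 and 0.330 in the other fits and with single libraries left out, and the difference was -0.20 without the libraries high in thalamic markers. Non-defeated values of Fkbp4, 254 to 337 CPM, overlapped with both groups.

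The target genes also overlapped between groups. Sgk1 had 65.5, 92.2, 99.8 and 87.3 CPM in resilient 3, 5, 7 and 8, and 70.4, 72.0 and 93.6 CPM in susceptible 2, 4 and 10. Its means were 84.8 ± 14.8 CPM in non-defeated, 86.2 ± 14.7 in resilient (SD, n = 4 each) and 78.6 ± 12.9 in susceptible mice (SD, n = 3). Tsc22d3 had 327, 271, 351 and 289 CPM in the resilient and 273, 330 and 284 CPM in the susceptible libraries, in the same order. The group means of 321, 310 and 296 CPM in non-defeated, resilient and susceptible mice lay within the range of the resilient libraries, and the log2 difference of all defeated against non-defeated mice was -0.09 (SE 0.10, 95% interval -0.30 to 0.12, adjusted p = 0.999). Zbtb16 had 13.8, 17.1, 12.6 and 17.9 CPM in the resilient and 16.6, 15.5 and 23.6 CPM in the susceptible libraries. Susceptible 10 was again the highest, and the log2 difference between susceptible and resilient mice was 0.28 (SE 0.19, 95% interval -0.12 to 0.67, adjusted p = 0.422).

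Hsd11b1 had 4.56, 6.42, 4.22 and 4.32 CPM in resilient 3, 5, 7 and 8 and 4.99, 5.63 and 6.12 CPM in susceptible 2, 4 and 10. Against non-defeated mice, whose values lay between 4.30 and 5.06 CPM, the susceptible group differed by a log2 value of 0.26 (SE 0.15, 95% interval -0.06 to 0.58, adjusted p = 0.467), and the groups overlapped by 1 library, susceptible 2. Crhr1 had 1.54, 2.45, 9.48 and 2.61 CPM in the resilient and 2.47, 2.32 and 1.85 CPM in the susceptible libraries. Its estimated log2 difference between susceptible and resilient mice, -0.86 (SE 0.60, 95% interval -2.14 to 0.41, adjusted p = 0.44), rested on resilient 7 and was 0.01 without that library. The estimate for susceptible against non-defeated mice, -0.96 (SE 0.60, adjusted p = 0.495), became 0.31 (adjusted p = 0.862) without the libraries high in thalamic markers. No direction can therefore be given for Crhr1.

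**Figure D5:**
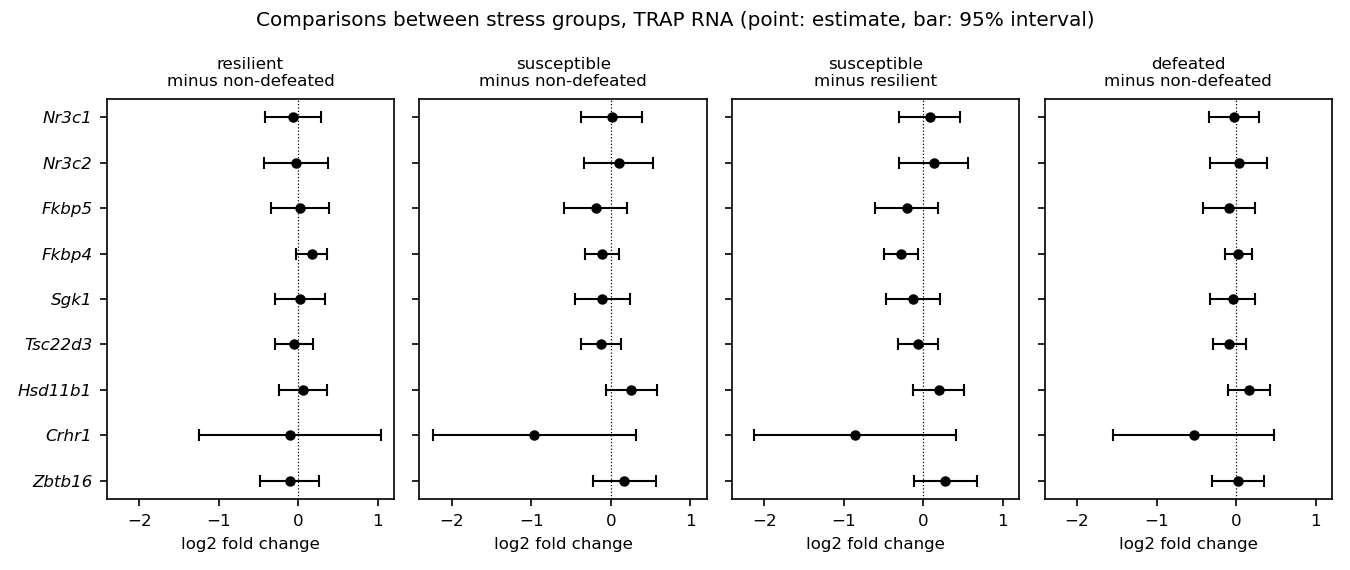
Log2 fold change of the 9 genes (vertical axis) in 4 comparisons of TRAP RNA (panels), with points for the estimate and bars for the 95% interval. All intervals include 0 except that of Fkbp4 in susceptible minus resilient mice (-0.50 to -0.07, adjusted p = 0.128), and those of Crhr1 are the widest.

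No gene of the 7 lists passed adjustment in any comparison between stress groups (0 of 75 tested each time). Without the libraries high in thalamic markers, 1 of 75 passed, in susceptible against resilient mice only. This was Avp, the vasopressin gene, named after its values were seen, with 125 and 374 counts in susceptible 2 and 4 and 2, 9 and 15 counts in resilient 3, 5 and 8 (log2 difference 4.91, adjusted p = 0.0318). With all libraries, where resilient 7 had 547 counts and susceptible 10 had 8, the log2 difference of Avp was 0.39 (adjusted p = 0.917). In mice without defeat, Avp had 524 and 647 counts in non-defeated 9 and 11, and 8 and 6 in non-defeated 1 and 6. Libraries high and low in Avp thus occurred in each TRAP group. At an unadjusted p-value under 0.05, 4 of the 75 passed in resilient against non-defeated mice and 15 in susceptible against non-defeated. In susceptible against resilient mice 19 of the 75 passed, and in all defeated against non-defeated mice 8 did. The shares over all genes were 4.38%, 13.3%, 20.9% and 4.88% in that order. The share of list genes was the larger in each comparison, which was not tested. The values that follow are descriptions of genes that did not pass adjustment. Cdkn1a, a cell cycle inhibitor gene, averaged 17.5 ± 3.40 CPM in the 3 susceptible libraries (SD), beside 11.8 ± 1.97 and 11.2 ± 1.35 CPM in the 4 resilient and 4 non-defeated libraries (adjusted p = 0.0665 and 0.145 for susceptible against the other groups). Susceptible values began at 13.8 CPM and resilient values ended at 14.3 CPM. The metallothionein genes Mt1 and Mt2, which encode metal-binding proteins, had 542 ± 59.4 and 82.9 ± 16.0 CPM in susceptible and 346 ± 85.0 and 50.8 ± 15.5 CPM in resilient mice (adjusted p = 0.106 and 0.135). Dusp1 had 61.2 ± 14.2 CPM in susceptible and 81.7 ± 4.79 CPM in non-defeated mice (adjusted p = 0.221). Lcn2, an iron-carrier protein gene, had 357 counts in susceptible 2, 54 in susceptible 10, 0 in susceptible 4 and at most 77 in each other library, so its estimate rests on single libraries. In resilient against non-defeated mice, Arrdc2 (log2 difference 0.47, SE 0.21) and Fam107a (0.31, SE 0.14) had adjusted p-values of 1.0. In all defeated against non-defeated mice, Lcn2, Cdkn1a, Dusp1, Ncoa3, Ucn and Avpr1b had unadjusted p-values under 0.05 and adjusted p-values of 0.827 to 0.999. Summed red blood cell markers were 885 to 1218 CPM in susceptible, 127 to 588 CPM in resilient and 114 to 240 CPM in non-defeated libraries. Summed choroid plexus markers were 411 to 677 CPM in susceptible, 154 to 424 CPM in resilient and 185 to 293 CPM in non-defeated libraries. Endothelial markers, in the same order, were 20.3 to 33.7, 12.7 to 37.8 and 7.64 to 14.1 CPM. Mural cell markers were 40.8 to 57.9, 32.6 to 49.3 and 26.1 to 43.0 CPM, and markers of other interneurons were 453 to 843, 382 to 760 and 389 to 596 CPM. The part of these cells in the differences of the 9 genes and of the lists was not tested.

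Within the chaperone list, Ppp5c, a phosphatase that binds the receptor complex, and Stip1, which hands the receptor from one chaperone to the next, showed the same order as Fkbp4. Ppp5c averaged 127 ± 8.46 CPM in the 3 susceptible libraries and 152 ± 5.14 CPM in the 4 resilient libraries (SD, adjusted p = 0.0719). Stip1 had 259 ± 18.8 and 317 ± 18.4 CPM (adjusted p = 0.094). For both, the groups did not overlap. The list genes in this paragraph, apart from Ptges3 below, were named for small p-values in the same comparisons, so a lack of overlap follows in part from that choice. Between susceptible and resilient mice, 20.9% of all genes had an unadjusted p-value under 0.05 in edgeR's quasi-likelihood test. The share of all genes without overlap was not counted. Hsp90aa1 had the opposite order, with 2085 ± 336 CPM in susceptible and 1603 ± 252 CPM in resilient mice (adjusted p = 0.0957), and its groups overlapped. Ptges3, named above for TRAP against input, also had the opposite order and no overlap. It had 246 to 301 CPM in susceptible and 227 to 239 CPM in resilient libraries. The list as a whole had 3 genes higher and 3 lower at an unadjusted p-value under 0.05 and a median log2 difference of 0.04, beside 0.00281 over all genes. Against non-defeated mice, Dnajb1, a cochaperone gene, had 105 ± 12.6 CPM in susceptible and 123 ± 5.01 CPM in non-defeated mice (adjusted p = 0.278). Among coregulators, Ncoa3, a steroid receptor coactivator gene, had 12.8 ± 2.03 CPM in susceptible, 19.3 ± 4.26 in resilient and 19.9 ± 2.07 in non-defeated mice, and no susceptible value reached those of the other groups (adjusted p = 0.065 and 0.152). Carm1 had 80.2 ± 5.23 and 94.3 ± 4.96 CPM in susceptible and resilient mice (adjusted p = 0.115), and Ncor1, a corepressor gene, 145 ± 8.03 and 122 ± 21.1 CPM (adjusted p = 0.224). In the SGK pathway, Wnk1 (52.9 ± 5.31 and 42.5 ± 4.97 CPM, adjusted p = 0.0969) and Foxo3 (15.5 ± 1.69 and 12.3 ± 0.804 CPM, adjusted p = 0.14) were at higher levels in susceptible than in resilient libraries, with no overlap for either. Srd5a1 had 8.91 ± 0.546 CPM in susceptible and 7.10 ± 0.295 CPM in non-defeated mice (adjusted p = 0.258) and Pgr had 6.63 ± 0.531 CPM in susceptible and 8.32 ± 1.62 CPM in resilient mice (adjusted p = 0.228). Ucn, which encodes the CRH-related peptide urocortin, had 13 to 39 counts in susceptible and 2 to 9 counts in non-defeated libraries (adjusted p = 0.253). Cyp11a1, described above with Crhr1, had 0.358 to 0.797 CPM in susceptible and 0.767 to 3.79 CPM in non-defeated libraries (log2 difference -1.89, adjusted p = 0.34), and the difference was -0.31 (adjusted p = 0.882) without the libraries high in thalamic markers. Avpr1b had 0 counts in all non-defeated and at most 17 in resilient libraries.

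Across the 11 TRAP libraries, the genes with the pattern most like a member were taken as those with the highest Pearson correlation of log2 CPM among 13138 genes. For Nr3c1 they were Tbrg1 (r = 0.981), Fubp1 (0.976) and Smarca5-ps (0.97). For Nr3c2 they were Phyhip (0.987), Ppp1r12a (0.978) and Dip2c (0.977), and for Fkbp5 they were Aplp2 (0.965), App (0.939) and Arhgef18 (0.939). These values describe 11 libraries that share their normalization and differ in the cell markers named above, and the highest of 13138 correlations is high by selection.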

How the data were processed

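TRAP RNA of 11 hippocampal samples and input RNA of 3 were sequenced as libraries made from 1 ng of RNA with a kit that does not record strand. The authors trimmed reads with fastp, aligned them to mm10 with STAR (version 2.5.3a in the processing notes, with HTSeq named beside it) and deposited raw counts per gene, without normalization. Whether these samples are independent rests on the design text, which pools the hippocampi of 1 mouse per TRAP sample.

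From the counts, 39017 identifiers were read and 37607 were named from the GENCODE annotation of GRCm38. Counts were analyzed in R 4.3.3 with edgeR 4.0.16: TMM normalization, the default filter on low counts (21298 genes kept), 1 quasi-likelihood model of all 14 libraries and 2-sided tests with Benjamini-Hochberg adjustment over all genes. Intervals are 95% and come from the model's standard errors. Exact permutation tests used log2 CPM with a prior count of 2. RPKM used the summed exon length. No pair of replicates within a group was as close as counting error allows (chi-square per degree of freedom of at least 13.2), so none was counted as a copy. Alternatives were the likelihood ratio test, DESeq2 1.42.0, RLE size factors, no filter, at least 10 counts in every library, TRAP libraries alone, the groups compared alone, the sample number as a covariate, each library left out, and, added after the data were seen, the 5 libraries over 100 CPM of thalamic markers left out.

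The members, lists and tests were chosen with earlier results of these data known. All members were described. Of each other list, up to 3 genes per direction with the smallest p-values were named in TRAP against input, and up to 3 per comparison between stress groups. Of the genes that met this rule, 1 is not reported here. The steps were tested on simulated data of the susceptible and resilient groups with 200 genes changed.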

Additional observations from a re-analysis of the deposited data

Results flagged for a closer look

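Among 18 sets of 4 libraries (9 genes in non-defeated and in resilient mice), 2 held a library far from the other 3 by Dixon's criterion, which chance alone meets in about 1 in 20 sets. Crhr1 had 9.48 CPM in resilient 7 and 1.54 to 2.61 CPM in the other resilient libraries, a gap of 0.866 of the whole range. That library also had the highest summed thalamic markers, 619 CPM. Hsd11b1 had 6.42 CPM in resilient 5 and 4.22 to 4.56 CPM in the others, a gap of 0.845 of the range. Without resilient 5, the log2 difference of Hsd11b1 was -0.10 in resilient against non-defeated mice and 0.35 (adjusted p = 0.155) in susceptible against resilient mice. The part of any technical factor was not tested.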

How the results depend on the processing

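No paired analysis was possible because each library has its own sample number. These numbers do not show whether input and non-defeated TRAP libraries came from the same mice, and the tests treated them as independent. Between TRAP and input, 8 of the 9 genes were called in each of the 6 other fits with all libraries, 9 without the libraries high in thalamic markers, and 7 to 8 with single libraries left out, where Sgk1 was the gene that lost its call. The number of genes called overall was 10024 to 11489 with single libraries left out and 10737 to 12696 in the other settings. Between stress groups, 0 of the 9 genes were called in every setting. The number of all genes called depended strongly on the fit, and the cause was not tested. In susceptible against resilient mice it was 403, and it was 1099 with the likelihood ratio test, 1004 with DESeq2, 126 with no filter, 1 in the 11 TRAP libraries alone, 0 in the groups compared alone, 1109 with the sample number as a covariate, 816 without the libraries high in thalamic markers, and 6 to 1058 with single libraries left out (lowest without resilient 8, highest without susceptible 10). In susceptible against non-defeated mice it was 8, and it was 189 with the likelihood ratio test, 113 with DESeq2, 13 with RLE size factors, 16 with at least 10 counts in every library, 5 in the groups compared alone, 0 in the TRAP libraries alone, with the sample number as a covariate and without the libraries high in thalamic markers, and 0 to 6 with single libraries left out. The likelihood ratio test called 4 genes in resilient against non-defeated mice and 30 in all defeated against non-defeated mice, where DESeq2 called 14, against 0 in the quasi-likelihood test.

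Log2 differences of members that were not called changed sign as follows. With single libraries left out, Crhr1 ran from -0.55 to 0.18 between TRAP and input. In resilient minus non-defeated mice, the ranges were -0.14 to 0.076 for Nr3c1, -0.22 to 0.13 for Nr3c2, -0.12 to 0.19 for Fkbp5, -0.062 to 0.14 for Sgk1, -0.12 to 0.0054 for Tsc22d3, -0.10 to 0.13 for Hsd11b1 and -0.97 to 0.35 for Crhr1. In susceptible minus non-defeated mice, they were -0.22 to 0.13 for Nr3c1, -0.12 to 0.25 for Nr3c2 and -0.045 to 0.28 for Zbtb16. In susceptible minus resilient mice, they were -0.15 to 0.20 for Nr3c1, -0.088 to 0.32 for Nr3c2 and -1.13 to 0.0097 for Crhr1. In all defeated minus non-defeated mice, they were -0.14 to 0.045 for Nr3c1, -0.071 to 0.11 for Nr3c2, -0.23 to 0.081 for Fkbp5, -0.035 to 0.10 for Fkbp4, -0.13 to 0.040 for Sgk1 and -0.086 to 0.11 for Zbtb16. With the sample number as a covariate, Nr3c2 was 0.015 and Crhr1 0.11 in resilient minus non-defeated mice, and Nr3c1 was 0.035, Fkbp5 0.029 and Sgk1 0.018 in all defeated minus non-defeated mice. Without the libraries high in thalamic markers, Nr3c2 was 0.10, Crhr1 0.18 and Zbtb16 0.16 in resilient minus non-defeated mice. In susceptible minus non-defeated mice, Nr3c1 was then -0.078, Nr3c2 -0.014, Fkbp5 0.18, Fkbp4 0.029 and Crhr1 0.31. In susceptible minus resilient mice, Nr3c1 was -0.074, Nr3c2 -0.12, Tsc22d3 0.032, Crhr1 0.12 and Zbtb16 -0.017. In all defeated minus non-defeated mice, Fkbp5 was 0.26, Sgk1 0.077 and Crhr1 0.25.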
